A study of Rattus norvegicus with 23 samples.

Results

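Klk1, Klk1c4 and Bdkrb2 are 3 genes of the kallikrein-kinin system. They were chosen by gene symbol, with results of these arrays already known, and every probe set that carries 1 of these symbols and no other was taken. That gave 3 of 14217 named genes and 5 of 31042 tested probe sets, with 1 for Klk1 (1387820_at), 1 for Klk1c4 (1371080_at) and 3 for Bdkrb2 (1370649_at, 1371120_s_at and 1370650_s_at). Kidney RNA came from male Sabra rats of the SBN/y strain, known to resist salt-induced hypertension, and of the SBH/y strain, known to be prone to it. In each strain 1 group had been sham-operated and kept 2 kidneys, and 1 had undergone uninephrectomy and kept 1 kidney. All animals ate standard chow, had surgery after weaning and were killed 3 months later, when they were 4 months old. The series title names proteinuria as the subject. There were 5 arrays of SBN/y with 2 kidneys and 6 of each other group, and every value below is a log2 expression level. The labels do not tie arrays to separate animals beyond their names, so a p-value here reflects spread among arrays that may be partly technical.

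Tissue kallikrein, the product of Klk1, is a serine protease that the connecting tubule of the kidney makes and releases into the urine. It cuts kininogen to release kinins. Bdkrb2 encodes the constitutive bradykinin receptor, which acts through G proteins, phospholipase C, nitric oxide and prostaglandins, and in the kidney kinins are known to favour vasodilation and sodium excretion. Klk1c4 is a rat paralog of Klk1 in a cluster of related genes on chromosome 1. A probe set for 1 of these genes can bind transcripts of another, so the split of signal among the paralogs is uncertain.

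The likeness of some of these genes is visible in the DNA around their start sites. The stretches below, from the RefSeq annotation of GRCr8, are shown for both kallikreins described here and for 2 paralogs that the arrays also measured. Each has 100 bases, written 5′ to 3′ on the gene's own strand, and the capitals mark the motif TTTAAA, which reads the same on both strands.
Klk1, chr1:103779097-103779196, plus strand: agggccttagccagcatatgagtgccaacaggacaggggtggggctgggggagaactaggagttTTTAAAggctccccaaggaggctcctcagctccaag
Klk1c4, chr1:103575242-103575341, minus strand: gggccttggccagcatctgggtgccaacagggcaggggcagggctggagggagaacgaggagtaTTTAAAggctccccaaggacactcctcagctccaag
Klk1c3, chr1:103808017-103808116, plus strand: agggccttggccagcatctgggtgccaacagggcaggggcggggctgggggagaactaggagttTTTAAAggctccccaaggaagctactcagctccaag
Klk1b3, chr1:103845556-103845655, plus strand: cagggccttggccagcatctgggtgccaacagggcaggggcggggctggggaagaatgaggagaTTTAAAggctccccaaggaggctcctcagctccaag
After alignment, Klk1c4 matched Klk1 in 89 of 101 columns (88.1%), Klk1b3 in 90 of 101 (89.1%) and Klk1c3 in 93 of 100 (93.0%). The other Klk stretches aligned, not shown, ran from 74.5% in Klk1c2 and Klk1c6 to 90.1% in Klk1c10. Transcript and probe sequences were not compared. In the 18 bases that begin 12 bases before TTTAAA and end with it, counted from 1 at the 5′ end, Klk1c4 differed from Klk1 by T5G and T12A. The 6 letters alone are common, since 4559 of 33469 promoter windows of 300 bases (13.6%) held them. The longer run TTTAAAGGCTC, searched on both strands, stood in 18 windows, and 9 of these belonged to Klk genes. These matches describe letters and say nothing on binding.

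Klk1 was among the brightest probe sets of the kidney, with a mean level of 9.93 that exceeded 98% of all probe sets. In SBN/y with 2 kidneys the arrays read 10.20, 10.27, 10.13, 10.33 and 10.16, a mean of 10.22 ± 0.08 (SD, n = 5). In SBN/y with 1 kidney Klk1 ran from 9.73 through a median of 10.05 to 10.37, with a mean of 10.05 ± 0.20 (SD, n = 6). In SBH/y with 2 kidneys it ran from 9.84 through 9.95 to 10.19, with a mean of 9.99 ± 0.14 (SD, n = 6). These 3 groups overlapped one another, so the order among them was not separated by the spread of the arrays. In SBH/y with 1 kidney Klk1 ran from 9.28 through 9.52 to 9.73, with a mean of 9.52 ± 0.19 (SD, n = 6). All 6 of these arrays lay below every array of the other 3 groups, although the lowest array of SBN/y with 1 kidney was only 0.0041 above the highest of them. These are whole-kidney values, in which fewer cells of a type and less RNA per cell cannot be told apart.

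As differences, Klk1 was 0.47 ± 0.09 (SE) lower on the log2 scale with 1 kidney than with 2 in SBH/y, which left 72.4% of the level with 2 kidneys. In SBN/y the same difference was -0.17 ± 0.09 (SE), with a 95% interval of -0.36 to 0.02, and it was -0.11 without replicate 3 of SBN/y with 1 kidney. Between strains, Klk1 in SBH/y differed from SBN/y by -0.23 ± 0.09 (SE) when both kidneys were kept and by -0.52 ± 0.09 (SE) after uninephrectomy. The response in SBH/y differed from that in SBN/y by -0.29 ± 0.13 (SE), with an interval of -0.56 to -0.03. It was -0.19 without 3 arrays that stood apart. The first was replicate 5 of SBN/y with 2 kidneys (no poly-A control signal). The others were replicate 3 of SBH/y with 2 kidneys and replicate 2 of SBH/y with 1 kidney. They had the narrowest and the widest SD over all probe sets (1.99 and 2.10). No test of a group difference is given for the 3 genes, because the genes were chosen with the results in view. Their intervals are descriptive and do not stand in for a test. Only correlations of deviations from the group means were tested for them. For scale, 5.04% of the 31042 probe sets passed an adjusted p of 0.05 for uninephrectomy in SBH/y in the limma fit over all probe sets. The shares were 0.168% for uninephrectomy in SBN/y, 9.07% and 14.0% for strain with 2 kidneys and with 1, and 0.254% for the difference between the uninephrectomy responses.

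RNA quality moved with the groups as well. The signal of GAPDH controls was higher for 3′ than for 5′ probes, by 0.53 ± 0.11 log2 (SD, n = 6) in SBH/y with 1 kidney, by 0.35 ± 0.03 (SD, n = 5) in the sham-operated SBN/y group and by 0.45 ± 0.04 and 0.46 ± 0.06 (SD, n = 6 each) in the other groups. With this measure as a covariate the Klk1 difference was -0.40 for uninephrectomy in SBH/y, -0.09 for uninephrectomy in SBN/y and -0.14 for strain with 2 kidneys.

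Klk1c4 was much dimmer, with a mean level of 4.71 that exceeded 50.7% of probe sets, and it had a wider range than Klk1. In SBN/y with 2 kidneys the arrays read 5.36, 5.07, 4.83, 4.61 and 4.82, a mean of 4.94 ± 0.29 (SD, n = 5). In SBH/y with 2 kidneys Klk1c4 ran from 5.29 through a median of 5.76 to 6.54, with a mean of 5.83 ± 0.42 (SD, n = 6). Here, unlike Klk1, the hypertension-prone strain had the higher mean, although 1 array of each group crossed into the other's range. In SBN/y with 1 kidney it ran from 3.76 through 3.97 to 5.17, with a mean of 4.14 ± 0.52 (SD, n = 6). In SBH/y with 1 kidney it ran from 3.45 through 3.94 to 4.46, with a mean of 3.98 ± 0.42 (SD, n = 6). Both groups with 1 kidney thus lay low and overlapped, and in SBH/y the lowest array with 2 kidneys was 0.83 above the highest with 1. Both means with 1 kidney were below the median probe set (4.66), where background is a larger share of the signal and differences can be understated.

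**Figure D1:**
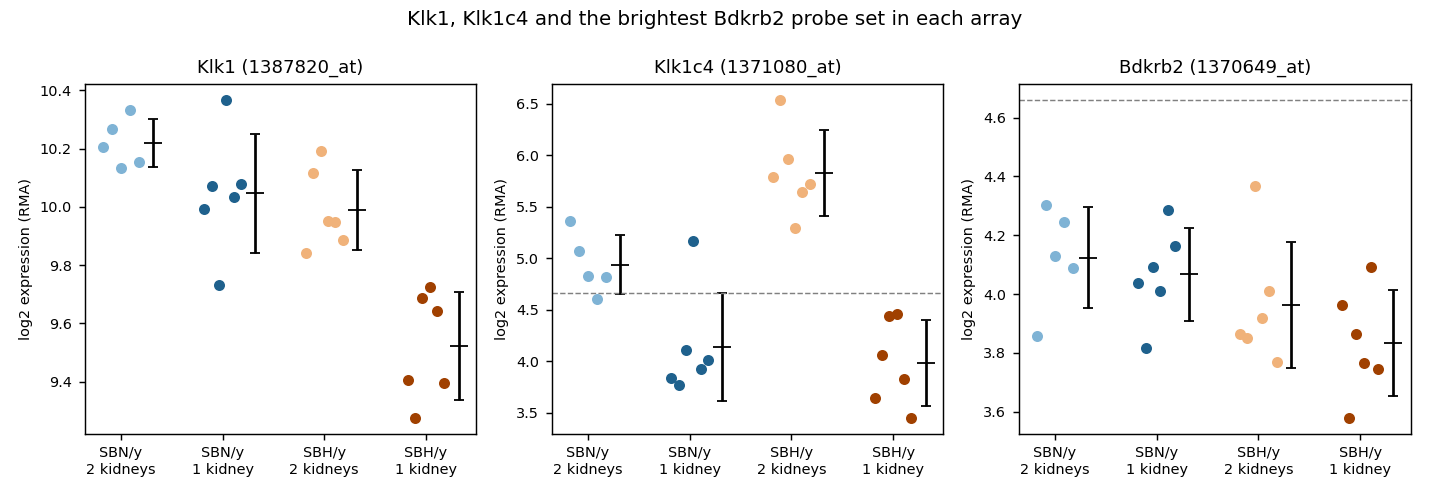
Log2 expression level of Klk1, Klk1c4 and the brightest Bdkrb2 probe set (vertical axes, different ranges) in the 4 groups, with 1 point per array, the horizontal mark at the group mean and the bar 1 SD to either side. The dashed line, where it falls in the range, is the median probe set at 4.66. Klk1 is low in all 6 arrays of SBH/y with 1 kidney, Klk1c4 is high in SBH/y with 2 kidneys and low with 1 kidney in both strains apart from 1 SBN/y array at 5.17, and the Bdkrb2 groups overlap.

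The Klk1c4 difference for uninephrectomy in SBH/y was -1.85 ± 0.21 (SE), a level with 1 kidney that was 27.8% of the level with 2 (3.59-fold lower). In SBN/y it was -0.80 ± 0.22 (SE), or 57.4% of the level with 2 kidneys, with overlapping groups. The response in SBH/y differed from that in SBN/y by -1.05 ± 0.31 (SE), with a 95% interval of -1.68 to -0.41. With 2 kidneys Klk1c4 was 0.89 ± 0.22 (SE) higher in SBH/y than in SBN/y, a 1.85-fold difference. With 1 kidney the strain difference was -0.16 ± 0.21 (SE), and its interval of -0.59 to 0.28 covers differences in either direction. Replicate 4 of SBN/y with 1 kidney, at 5.17, stood above the rest of its group, whose next array was at 4.11. Without it the difference in SBN/y was -1.01, the excess response of SBH/y was -0.84 and the strain difference with 1 kidney was 0.05. With the GAPDH covariate the difference in SBH/y was -1.74 and the strain difference with 1 kidney -0.04.

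**Figure D2:**
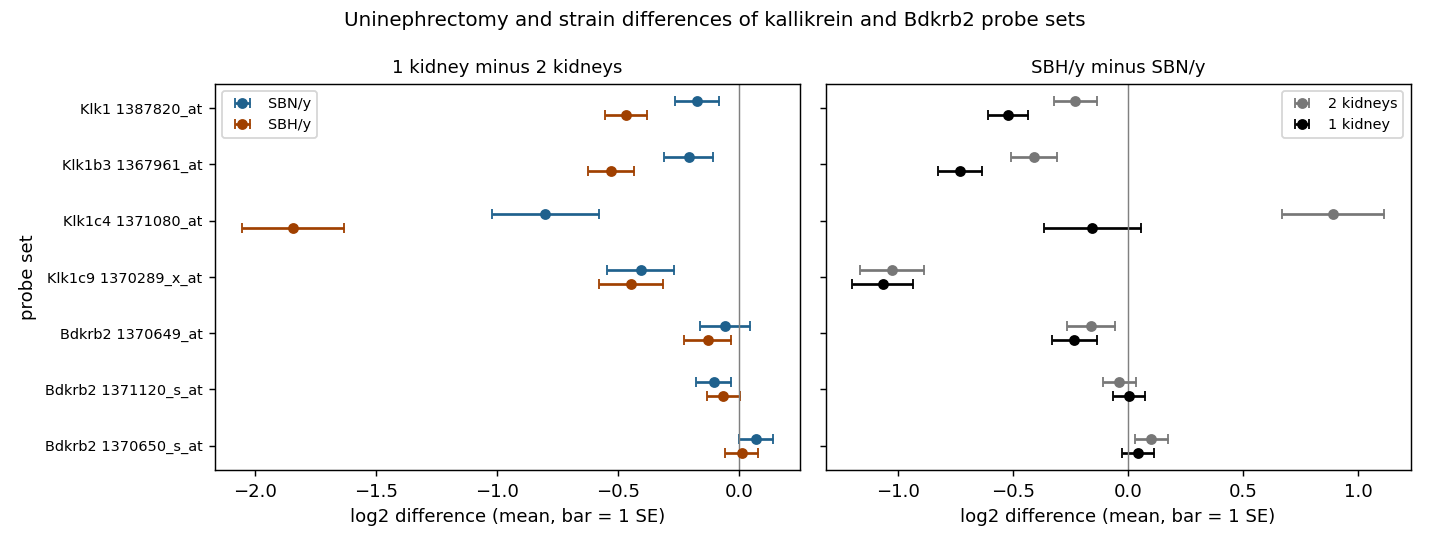
Log2 differences (points) with 1 SE (bars) for 7 probe sets of Klk1, Klk1b3, Klk1c4, Klk1c9 and Bdkrb2. The left panel shows 1 kidney minus 2 kidneys in each strain and the right panel SBH/y minus SBN/y at each kidney number. Klk1c4 has the longest distance from 0 on the left, at -1.85 in SBH/y, and is the one kallikrein here above 0 on the right, at 0.89 with 2 kidneys.

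The arrays measured 9 other kallikrein family genes, and 1 of them, Klk1b3, was brighter than the median probe set. Of the 9, 0 rose and 3 fell in SBH/y against SBN/y with 2 kidneys, where 4.32% of all probe sets rose and 4.75% fell (limma, Benjamini-Hochberg adjusted over 31042 probe sets). With 1 kidney 0 rose and 3 fell, against 7.55% and 6.43% of all probe sets. After uninephrectomy 0 rose and 2 fell in SBH/y, against 3.06% and 1.97% of all probe sets, and 0 passed in SBN/y, where 0.0838% of all probe sets rose and 0.0838% fell. The median difference of the 9 was -0.07, -0.15, -0.14 and -0.05 in these 4 comparisons, beside medians over all probe sets of 0.0044, -0.0053, -0.0075 and 0.0008. The list was drawn up with results of these arrays known, and its members may share signal with Klk1.

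Klk1b3, another paralog of Klk1, followed Klk1 in its order of groups. Its mean was 10.16 in sham-operated SBN/y, 9.95 in SBN/y with 1 kidney, 9.75 in sham-operated SBH/y and 9.22 in SBH/y with 1 kidney. It was 0.53 ± 0.10 (SE) lower with 1 kidney in SBH/y (limma adjusted p = 0.000789), and all 6 arrays lay below the 6 with 2 kidneys. In SBN/y the difference was -0.21 ± 0.10 (SE, limma adjusted p = 0.652). Between strains Klk1b3 was 0.41 ± 0.10 (SE) lower in SBH/y with 2 kidneys (limma adjusted p = 0.00719, and 0.0582 with the GAPDH covariate) and 0.73 ± 0.10 lower with 1 kidney (limma adjusted p = 2.05e-06).

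Klk1c9 had the widest strain difference of the other kallikreins. Its mean was 4.45 in sham-operated SBN/y and 4.04 after uninephrectomy, and 3.42 and 2.98 in the same groups of SBH/y, all below the median probe set. SBH/y was lower by 1.03 ± 0.14 (SE) with 2 kidneys and by 1.07 ± 0.13 (SE) with 1 kidney (limma adjusted p = 5.23e-06 and 9.08e-07), and in both cases the groups did not overlap. For uninephrectomy in SBH/y it fell by 0.45 ± 0.13 (SE, limma adjusted p = 0.0481), a call that was lost in 17 of 23 fits that each left out 1 array, with adjusted p up to 0.151. Its probe set name (1370289_x_at) carries the suffix that Affymetrix gives to sets with probes shared by other sequences. Klk1c3, also dim, was lower in SBH/y by 0.24 ± 0.06 (SE) with 2 kidneys and by 0.20 ± 0.06 with 1 kidney (limma adjusted p = 0.0106 and 0.0198). Its adjusted p rose to 0.0507 with 2 kidneys without replicate 2 of SBN/y. The call with 1 kidney was lost on leaving out replicate 2 or 5 of SBN/y or replicate 5 of SBH/y (adjusted p up to 0.0581). Klk1c10, Klk1c2, Klk1c8, Klk6, Klk8 and Klk10 passed in 0 of the 5 comparisons.

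**Figure D3:**
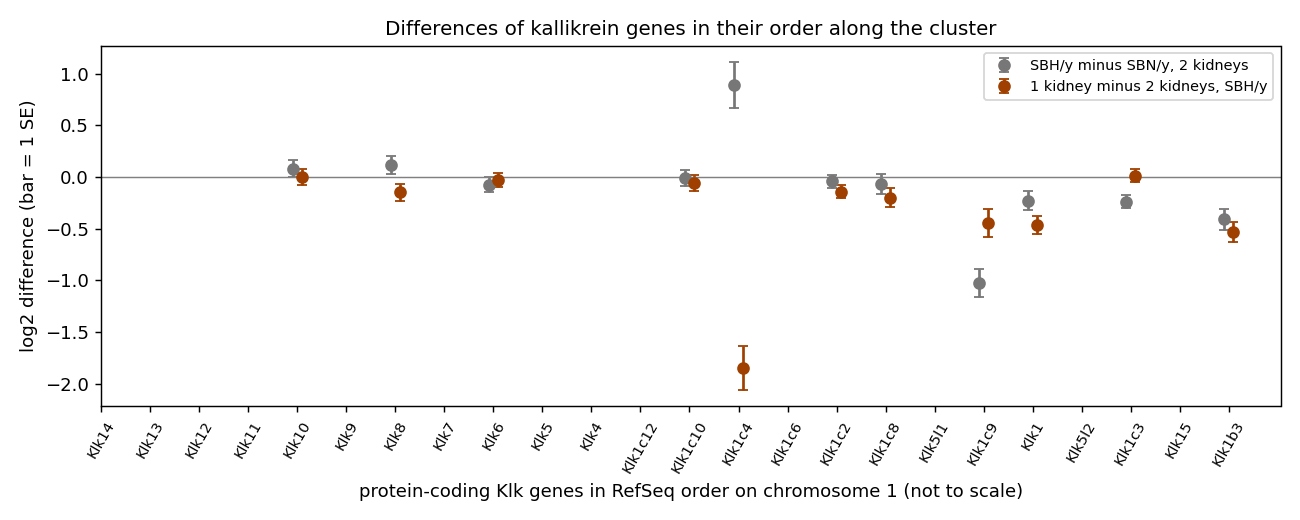
Log2 difference with 1 SE (vertical axis) of the 11 kallikrein genes that have a probe set, placed along the horizontal axis in the RefSeq order of 24 protein-coding Klk genes on chromosome 1, not to scale. Grey points are the strain difference of sham-operated rats (SBH/y minus SBN/y) and brown points 1 kidney minus 2 kidneys in SBH/y. Klk1c4 has the highest grey point, at 0.89, and the lowest brown point, at -1.85. The grey points of Klk8 and Klk10 lie slightly above 0, at 0.12 and 0.08, and the 4 measured genes at the right, Klk1c9, Klk1, Klk1c3 and Klk1b3, have grey points below 0.

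In the RefSeq order, Klk1c9, Klk1, Klk1c3 and Klk1b3 follow each other as the last 4 measured genes of the cluster, and all 4 had lower means in SBH/y at both kidney numbers. Klk1c4 lies apart from them, between Klk1c10 and Klk1c6, and had the opposite sign with 2 kidneys. The neighbours of Klk1c4 with a probe set, Klk1c10 and Klk1c2, were dim, with mean levels of 3.21 and 2.73.

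Array by array, the paralogs moved together to a different extent. Over the 23 arrays Klk1b3 had the highest Pearson r with Klk1 of 9420 candidate genes (0.94), and r was 0.78 on deviations from the group means. Next came Gcgr, the glucagon receptor (0.93 and 0.72 on deviations), then Tmem213 (0.91 and 0.78), the syndecan gene Sdc2 (0.91 and 0.63) and the phosphatase inhibitor gene Ppp1r1a (0.89 and 0.74). For Klk1c4 the most alike were Id4, a regulator of transcription (0.86 and 0.58 on deviations), Rhcg, an ammonia transporter of the collecting duct (0.86 and 0.46), Sema3g (0.85 and 0.25), Clk2 (0.84 and 0.15) and Sema3e (0.81 and 0.38). These genes were ranked by r over all 23 arrays. Klk1b3 had a lower r with Klk1c4 over the 23 arrays (0.42). On deviations that r was 0.73, above the deviation values of the genes named for Klk1c4. The group differences themselves can raise or lower the value over all 23 arrays, and all values share the same arrays.

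Within groups, the deviations of Klk1 and Klk1c4 correlated over 23 arrays with r = 0.56 (permutation test within groups, two-sided, p = 0.0224, and 0.0672 adjusted over 3 pairs of genes). Spearman's rho was 0.41 (permutation p = 0.0836, adjusted 0.251). Without the 2 arrays farthest from the median in Klk1, replicates 4 and 3 of SBN/y with 1 kidney, r was 0.49 (permutation p = 0.0787), and without replicate 4 alone it was 0.37. Within single groups r was -0.22 in SBN/y with 2 kidneys, 0.65 in SBN/y with 1, 0.57 in SBH/y with 2 and 0.62 in SBH/y with 1. The relation did not pass after adjustment. Klk1 and Bdkrb2 gave r = 0.32 (permutation p = 0.152, adjusted 0.228) and rho = 0.29 (permutation p = 0.213, adjusted 0.32), with r = 0.48 without the same 2 arrays. Klk1c4 and Bdkrb2 gave r = -0.14 (permutation p = 0.555, adjusted 0.555) and rho = -0.18 (permutation p = 0.432, adjusted 0.432), with r = -0.03 without replicate 4 of SBN/y with 1 kidney and replicate 2 of SBH/y with 2 kidneys.

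**Figure D4:**
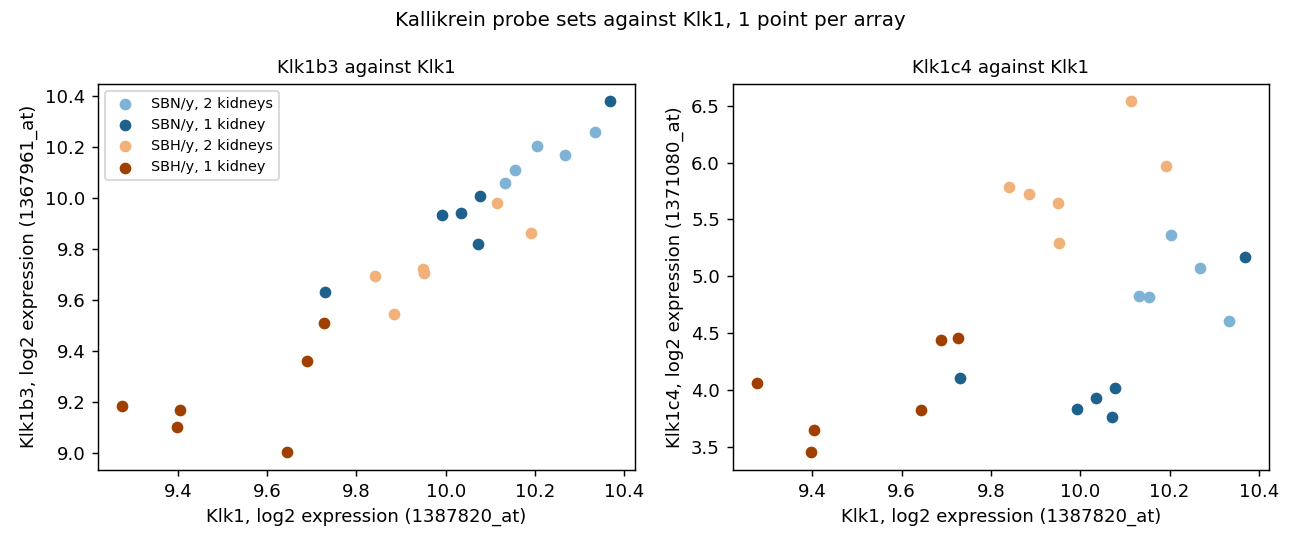
Log2 level of Klk1b3 (left) and Klk1c4 (right) against the log2 level of Klk1 in the same array, with 1 point per array coloured by group. Klk1b3 lies along a line with Klk1 (r = 0.94 over 23 arrays). Klk1c4 follows Klk1 less closely (r = 0.50 over 23 arrays), and its groups partly overlap. Its mean is highest in SBH/y with 2 kidneys, at a Klk1 level similar to that of SBN/y with 1 kidney.

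The receptor gene Bdkrb2 was dim in all 3 probe sets. The brightest, 1370649_at, had a mean level of 3.99, above 39.3% of probe sets, and the others were above 23.7% and 10.1%. In SBN/y with 2 kidneys 1370649_at read 3.86, 4.30, 4.13, 4.24 and 4.09, a mean of 4.12 ± 0.17 (SD, n = 5). In SBN/y with 1 kidney it ran from 3.82 through a median of 4.06 to 4.29 (mean 4.07 ± 0.16, SD, n = 6). In SBH/y with 2 kidneys it ran from 3.77 through 3.89 to 4.37 (mean 3.96 ± 0.21, SD, n = 6), and with 1 kidney from 3.58 through 3.81 to 4.09 (mean 3.83 ± 0.18, SD, n = 6). The order of the group means was the same as for Klk1, but every group overlapped every other. In dim probe sets background is a large share of the signal, so a fold change of the transcript would be understated.

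For 1370649_at, uninephrectomy gave a difference of -0.06 ± 0.10 (SE, interval -0.27 to 0.15) in SBN/y and of -0.13 ± 0.10 (SE, interval -0.33 to 0.07) in SBH/y. The strain difference was -0.16 ± 0.10 (SE, interval -0.37 to 0.05) with 2 kidneys and -0.23 ± 0.10 (SE, interval -0.43 to -0.03) with 1 kidney. The 2 other probe sets, 1371120_s_at and 1370650_s_at, had differences between -0.10 and 0.10 in these comparisons, with overlapping groups throughout. With 2 kidneys the strain difference was 0.10 in 1370650_s_at and -0.04 in 1371120_s_at, so the probe sets did not share a direction. The uninephrectomy difference of 1370649_at in SBH/y was -0.05 without replicate 3 of SBH/y with 2 kidneys and 0.0041 without the 3 arrays named above. With the GAPDH covariate its strain difference was -0.09 with 2 kidneys.

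The brightest Bdkrb2 probe set varied with how spread out an array's values were. Arrays with a wider SD over all probe sets had lower 1370649_at, with r = -0.84 for deviations from group means over 23 arrays (permutation test within groups, p = 4e-05, and 0.00012 adjusted over 3 genes) and rho = -0.74 (permutation p = 0.00045, adjusted 0.00135). Without the 2 arrays farthest out, replicate 3 of SBH/y with 2 kidneys and replicate 2 of SBH/y with 1 kidney, r was -0.71 (permutation p = 0.00104). The same relation was -0.45 for Klk1 (permutation p = 0.0292, adjusted 0.0438), with rho = -0.49 (permutation p = 0.0327, adjusted 0.049), but -0.20 without these 2 arrays, on which it rests. For Klk1c4 it was 0.07 (permutation p = 0.771, adjusted 0.771), with rho = 0.10 (permutation p = 0.668, adjusted 0.668) and r = 0.12 without the 2 arrays. Replicate 3 of SBH/y with 2 kidneys held the highest Bdkrb2 of its group, 4.37, with the narrowest SD, 1.99. The genes most like Bdkrb2 were Dll4, Endov, Lrrc37a, Sox2 and Kcnj3, with r of 0.82 to 0.88 over 23 arrays and 0.83 to 0.87 on deviations from the group means. The relation to array spread was not computed for the other Bdkrb2 probe sets or for other dim probe sets. It is therefore not shown to be particular to Bdkrb2. The part of array spread in the Bdkrb2 differences was not tested.

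Other genes of the kinin pathway were followed from a list that was also drawn up with earlier results known. Of 25 listed, 21 were measured under a single symbol, and the kininogens were not among them. In SBH/y against SBN/y with 2 kidneys 4 rose and 1 fell, where 9.07% of all probe sets passed in either direction, and the list's median difference was 0.0007. Higher in SBH/y were Mme, neprilysin, which degrades kinins (0.32 ± 0.07, limma adjusted p = 0.00207), and Cpn1, the catalytic chain of carboxypeptidase N (0.39 ± 0.08, limma adjusted p = 0.000866). Serping1, the inhibitor of plasma kallikrein, was also higher (0.27 ± 0.07, limma adjusted p = 0.00956), and so was Thop1, an oligopeptidase that cuts bradykinin (0.22 ± 0.07, limma adjusted p = 0.0431, a call lost in 9 of 23 fits that left out 1 array). Klkb1, plasma prekallikrein, was dim and lower by 0.45 ± 0.09 (limma adjusted p = 0.00113). Genes were counted by their brightest probe set, and second probe sets of 2 other enzymes of the list went the other way from Mme and Cpn1. For Cpm, a carboxypeptidase that acts on kinins, the set 1391656_at was lower in SBH/y by 0.88 ± 0.14 with 2 kidneys (limma adjusted p = 4.57e-05), while the set counted gave -0.10 ± 0.08 (limma adjusted p = 0.565). For the peptidase Dpp4, the set 1387084_at was lower by 0.40 ± 0.06 (limma adjusted p = 8.29e-06), while the set counted gave -0.12 ± 0.05 (limma adjusted p = 0.187).

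With 1 kidney 2 genes of the list rose and 3 fell in SBH/y against SBN/y, beside 14.0% of all probe sets in either direction and a list median of -0.0018. Cpn1 was higher by 0.64 ± 0.07 (limma adjusted p = 2.33e-07) and Serping1 by 0.40 ± 0.07 (limma adjusted p = 4.6e-05). Klkb1 was lower by 0.32 ± 0.09 (limma adjusted p = 0.0105), the kinin-degrading enzyme Ace by 0.28 ± 0.08 (limma adjusted p = 0.0182) and Prep by 0.22 ± 0.07 (limma adjusted p = 0.0238). The Ace call was lost on leaving out replicate 4 of SBN/y or replicate 1 of SBH/y, and the Prep call on leaving out replicate 3 or 6 of SBN/y or replicate 1 of SBH/y (adjusted p up to 0.0854). With the GAPDH covariate the adjusted p was 0.0548 for Klkb1 and 0.0695 for Ace. The second probe sets again differed from those counted, with Cpm 1391656_at lower by 0.94 ± 0.13 (limma adjusted p = 5.21e-06), Dpp4 1387084_at lower by 0.41 ± 0.05 (limma adjusted p = 1.54e-06) and Prcp 1393657_at, a dim set of a carboxypeptidase, higher by 0.29 ± 0.08 (limma adjusted p = 0.0169). The second Ace set, 1370028_at, was also dim and did not pass (-0.08 ± 0.08, limma adjusted p = 0.664).

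Uninephrectomy in SBH/y lowered 3 genes of the list and raised 0, beside 1.97% of all probe sets lower and a list median of -0.05. Prep, prolyl endopeptidase, fell by 0.39 ± 0.07 (limma adjusted p = 0.000358), Mme fell by 0.37 ± 0.07 (limma adjusted p = 0.000625) and Anpep, aminopeptidase N, fell by 0.20 ± 0.05 (limma adjusted p = 0.0214). The Anpep call was lost without replicate 5 of SBH/y with 2 kidneys and without replicate 5 or 6 with 1 kidney. In SBN/y 0 genes of the list passed. The mean of Mme was 9.50 in sham-operated SBN/y and 9.57 after uninephrectomy, and 9.82 and 9.45 in the same groups of SBH/y, so its response differed between strains by -0.44 ± 0.10 (limma adjusted p = 0.0386), in a comparison where 0.0451% of all probe sets were lower. That call was lost in 13 of 23 fits that left out 1 array. Bdkrb1, the inducible bradykinin receptor, was dim in every group and had adjusted p from 0.226 to 0.987 over the 5 comparisons.

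Downstream of the receptor, all 16 listed genes of its signalling were measured. Strain with 2 kidneys gave 1 higher and 1 lower, beside 4.32% and 4.75% of all probe sets, with a list median of 0.05. Higher was Ptgs1, a cyclooxygenase (0.34 ± 0.10, limma adjusted p = 0.0234), a call lost in 4 of 23 fits that left out 1 array, with the replicate block (0.0589) and with the GAPDH covariate (difference 0.22, adjusted p = 0.229). Lower was Plcb1, a phospholipase C (-0.36 ± 0.08, limma adjusted p = 0.00474). With 1 kidney 4 were higher and 1 lower in SBH/y, beside 7.55% and 6.43% of all probe sets, with a list median of 0.05. Higher were Ptgs2, the inducible cyclooxygenase (0.51 ± 0.16, limma adjusted p = 0.0233), Pla2g4a, a phospholipase A (0.36 ± 0.10, limma adjusted p = 0.0126), and the guanylate cyclase subunits Gucy1b1 (0.29 ± 0.09, limma adjusted p = 0.0233) and Gucy1a1 (0.24 ± 0.07, limma adjusted p = 0.0275). Plcb1 was lower again by 0.30 ± 0.08 (limma adjusted p = 0.0113). Each of these 4 higher calls was lost in 1 or more of the other fits. Second probe sets did not pass with 1 kidney. For Gucy1a1, 1387079_at gave -0.08 ± 0.09 (limma adjusted p = 0.684), the opposite direction. For Gucy1b1, 1369097_s_at gave 0.24 ± 0.09 (limma adjusted p = 0.0934). Uninephrectomy lowered Ptgs1 in SBH/y by 0.33 ± 0.09 (limma adjusted p = 0.0327, lost in 7 of 23 fits that left out 1 array), where 1.97% of all probe sets were lower and the list median was 0.02, and 0 genes passed in SBN/y. The second Ptgs1 set, 1381806_at, was dim and passed neither call. It gave 0.15 ± 0.10 for strain with 2 kidneys (limma adjusted p = 0.482). For uninephrectomy in SBH/y it gave -0.15 ± 0.10 (limma adjusted p = 0.545).

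Kallikreins are also counted among the proteases that act on the epithelial sodium channel. Of 9 measured genes of that channel, its proteases and their inhibitors, 2 were higher in SBH/y with 2 kidneys, 3 with 1 kidney, 1 after uninephrectomy in SBH/y and 0 in SBN/y, and 0 were lower. All of these calls were of inhibitor genes, and 0 channel subunits or proteases passed. The shares of all probe sets that were higher in these comparisons were 4.32%, 7.55%, 3.06% and 0.0838%, and the list medians were 0.04, 0.04, -0.0029 and -0.07. Serpine2, a protease inhibitor that acts on prostasin, was higher in SBH/y by 0.65 ± 0.10 with 2 kidneys and by 1.04 ± 0.09 with 1 kidney (limma adjusted p = 3.3e-05 and 3.76e-09), and rose by 0.46 ± 0.09 after uninephrectomy (limma adjusted p = 0.00271). The protease inhibitor gene Spint1 was higher in SBH/y by 0.19 ± 0.06 with 2 kidneys (limma adjusted p = 0.0306, lost in 6 of 23 fits that left out 1 array and with the GAPDH covariate) and by 0.22 ± 0.05 with 1 kidney (limma adjusted p = 0.00505). Spint2, a related inhibitor, was higher with 1 kidney by 0.22 ± 0.05 (limma adjusted p = 0.00132). In the 4 lists together, 12 of 55 genes passed for strain with 2 kidneys (21.8%, beside 9.07% of all probe sets), 16 with 1 kidney (29.1%, beside 14.0%), 7 for uninephrectomy in SBH/y (12.7%, beside 5.04%) and 1 for the difference in response (1.82%, beside 0.254%). For uninephrectomy in SBN/y 0 of 55 passed in the limma fit, and 9 had an unadjusted p under 0.05, beside 2364 of all probe sets. The lists count only the brightest probe set of each gene. The shares of all probe sets also include dim sets and sets without a symbol, so the percentages are not like for like.

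Markers of the kidney were well represented, with 6 of 6 for proximal tubule, 5 of 5 for thick ascending limb and 8 of 8 for principal cells above the median probe set. Of 6 markers of the connecting tubule, the segment that makes tissue kallikrein, 0 passed for uninephrectomy in SBH/y, where 5.04% of all probe sets passed. The mean log2 level of the 6 ran from 6.83 to 6.89 in SBH/y with 2 kidneys and from 6.54 to 7.0 with 1 kidney. Between strains 2 of the 6, Calb1 and Kl, passed as lower in SBH/y at both kidney numbers. The shares of all probe sets that were lower were 4.75% with 2 kidneys and 6.43% with 1. Slc8a1 had lower means in SBH/y at both kidney numbers but did not pass. Atp2b1, Trpv5 and Trpv6 had higher means in SBH/y at both and did not pass. Of 6 measured intercalated cell markers, 4 fell after uninephrectomy in SBH/y (Slc4a1, Atp6v1b1, Rhcg and Foxi1), beside 1.97% of all probe sets. The mean level of the 6 ran from 6.60 to 6.78 with 2 kidneys and from 6.27 to 6.49 with 1. Of 8 principal cell markers 2 fell (Aqp4 and Fxyd4), with ranges of 8.13 to 8.30 and 7.65 to 8.04. Podocyte markers fell in 3 of 5, endothelial markers in 2 of 5, distal convoluted tubule markers in 1 of 5 and fat markers in 1 of 6. For proximal tubule and thick ascending limb 0 passed. Myeloid markers rose in 4 of 6, lymphocyte markers in 3 of 5 and smooth muscle and pericyte markers in 2 of 6 in the same comparison, beside 3.06% of all probe sets. The part of these cell types in the Klk1 and Klk1c4 differences was not tested.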

How the data were processed

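Each of 23 rat kidney samples was run on its own Affymetrix array. The authors deposited log2 expression values, and the submitters' processing notes name GCOS and RMA without versions. RMA is known to equalise the distributions of arrays, so a change in total RNA could not be seen. Of 31099 probe sets, 57 controls were left out. Symbols came from the platform annotation, which gave 1 symbol for 20826 probe sets, and 20758 identifiers were found in RefSeq (GRCr8).

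A single limma fit (limma 3.58.1, R 4.3.3) of 4 group means gave 5 contrasts, two-sided, with Benjamini-Hochberg adjustment over 31042 probe sets and a threshold of 0.05. Errors are standard errors unless SD is given, and intervals are 95%. The fit was tested on simulated data. The 3 genes and all lists were chosen with earlier results of these data known. A gene was represented by its brightest probe set. The 5 genes most alike to each member came from genes brighter than the median. For list genes, a second probe set was named where 1 set passed and the other did not. List genes were named if they passed, up to the 4 smallest p per list and contrast. Thop1, Prep (for strain with 1 kidney) and Gucy1a1 fall outside this rule and were named after their values were seen, to complete a count. Correlations used 100000 permutations within groups. Stretches were aligned with Biopython 1.88. The number of arrays limits the precision.

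Array medians lay between 4.65 and 4.69, and arrays of a group correlated at 0.990 to 0.997. The poly-A control DapX read 2.62 in replicate 5 of SBN/y with 2 kidneys and 8.14 to 9.55 in the others. Alternatives were another normalization, dim-probe filter, variance model, sample set, a replicate block, a GAPDH covariate and arrays left out. The relation to array spread was added after seeing the data.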

Additional observations from a re-analysis of the deposited data

Results flagged for a closer look

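Klk1c4 in replicate 4 of SBN/y with 1 kidney, at 5.17, lay far above the rest of its group, whose next array was at 4.11. The same array was highest of its group in Serping1 (9.55, next 9.23) and in Gucy1a1 (7.59, next 7.30), by the same measure of a gap against the group's range. Other single arrays that stood apart were the lowest Prep (9.04, next 9.32) and the highest Klk6 (3.63) in replicate 1 of SBH/y with 1 kidney, the lowest Gucy1a1 (7.3, next 7.54) in replicate 3 of that group and the lowest Klk1c2 (2.49) in replicate 6. In SBH/y with 2 kidneys these were the highest Klk1c10 in replicate 2 (3.32) and the highest Serping1 in replicate 4 (9.83, next 9.59), and in SBN/y with 2 kidneys the lowest Klk10 in replicate 1 (3.39). These are 10 of 124 combinations of a probe set and a group, and chance gives about 1 in 20. The Mme response to uninephrectomy differed between strains by -0.4402 (limma adjusted p = 0.0386).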

How the results depend on the processing

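The differences of the 5 probe sets of Klk1, Klk1c4 and Bdkrb2 moved by less than 1 SD of the arrays under the alternatives tried. This bound is loose for small differences. Without the 3 arrays named above, Bdkrb2 1370649_at went from -0.13 to 0.0041 for uninephrectomy in SBH/y. Its difference in response went from -0.07 to 0.07, and that of Klk1 from -0.29 to -0.19. Leaving out 1 array at a time, the uninephrectomy difference in SBH/y ran from -1.95 to -1.70 for Klk1c4, from -0.51 to -0.42 for Klk1 and from -0.18 to -0.05 for Bdkrb2 1370649_at, and the one in SBN/y from -1.01 to -0.69, from -0.24 to -0.11 and from -0.12 to -0.0062. The Klk1c4 strain difference with 1 kidney ran from -0.25 to 0.05. Over 33 pairs of arrays with the same replicate number the deviations correlated at -0.27 to 0.26 (median 0.04). The median for different numbers was -0.0094. These values cannot settle whether arrays with the same number were handled together. The Klk1c4 difference with the replicate block was -1.85 in SBH/y and -0.75 in SBN/y. With the replicate block, and also without 3 arrays chosen after seeing the data, the difference in response had 0 list genes (otherwise 1, Mme, whose limma adjusted p was 0.0864 and 0.0734 in these fits). Leaving out 1 array at a time gave 9 to 12 list genes for strain with 2 kidneys, 11 to 16 with 1, 0 in each fit for uninephrectomy in SBN/y, 4 to 10 for uninephrectomy in SBH/y (4 without replicate 5 of SBH/y with 2 kidneys) and 0 to 1 for the difference in response. The Klk1 and Klk1c4 correlation ran from 0.37 to 0.63 and was 0.41 as Spearman's rho. The cause of these changes was not tested.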
